A study of Homo sapiens with 12 samples.

Results

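A set of 34 heat shock and chaperone genes were followed through an RNA-seq study of the transcription factor KLF5 in 2 human squamous carcinoma cell lines. The genes were chosen by symbol from a fixed list of the inducible heat shock chaperones and their regulator HSF1, the constitutive HSP70 and HSP90 proteins, their co-chaperones, small heat shock proteins, the mitochondrial chaperonin and the TRiC/CCT chaperonin. All 34 were found among the 57820 genes in the files. Most of the encoded proteins work in the cytosol, but HSPA9, HSPD1 and HSPE1 encode chaperones of the mitochondrial matrix. The head and neck squamous cell carcinoma line BICR31 received a small interfering RNA that silences KLF5 (siKLF5, 3 libraries) or the control siNC (3 libraries). The HCC95 line, from a squamous cell carcinoma of the lung, had an empty vector (2 libraries), overexpressed wild-type KLF5 (WT, 2 libraries) or overexpressed the KLF5 missense form E419Q (2 libraries), whose changed residue lies in the DNA-binding domain. Replicates were lettered A to C in BICR31 and A and B in HCC95. The labels do not say that they came from separate cultures, so each p-value is set against the spread between libraries alone, which may be technical. For the time of harvest, the siRNA sequence, the vector and its promoter, the sources used here give nothing.

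Chaperones bind unfolded or partly folded proteins and keep them from aggregating while they fold. HSP70 proteins bind short hydrophobic stretches with the help of J-domain proteins and nucleotide exchange factors. They hand clients such as kinases and steroid receptors on to HSP90, and pass others to the ring-shaped TRiC/CCT chaperonin. The proteins folded by TRiC/CCT include actin and tubulin. When unfolded protein builds up, HSF1 trimerises, binds heat shock elements, which are alternating copies of GAA and TTC in gene promoters, and raises the inducible chaperones. Carcinoma lines usually keep these genes at high levels without any heat stress. KLF5, like other KLF and SP factors, binds GC-rich boxes.

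KLF5 itself followed the labels. In BICR31 its normalised signal was 986, 1008 and 882 units with siKLF5 and 2682, 2289 and 2620 units with siNC, so the log2 fold change was -1.40 ± 0.09 (SE) with an adjusted p of 7.27e-09 by limma. In HCC95 it was 149.9 and 136.1 CPM (counts scaled to a common library total) with the empty vector, 420.0 and 404.0 CPM with WT, and 427.4 and 441.9 CPM with E419Q. The summed signal of 10 squamous epithelial markers was 120200 to 124700 units with siKLF5 and 147400 to 150700 with siNC, with none of them at 0. The sum follows KRT5, KRT17 and SFN, the most abundant members with siNC, and KRT14 and TP63 were lower as well. The other way went CDH1 (24300 to 26290 units with siKLF5, 14050 to 14600 with siNC) and DSG3 (2787 to 3007 and 1600 to 1641). So did PERP (9600 to 10250 and 7824 to 9386) and EPCAM (3780 to 3892 and 3328 to 3773), while DSC3 overlapped. In HCC95 it was 19580 to 20620 CPM (empty vector), 23160 to 24270 CPM (WT) and 14220 to 15020 CPM (E419Q). KRT5, KRT17, SFN and DSG3 were lower with E419Q than with the empty vector, and KRT14, TP63, DSC3, EPCAM and CDH1 were higher, while PERP overlapped. With WT, SFN, EPCAM and CDH1 were lower and the rest higher. Of 11 markers of fibroblasts, endothelium and immune cells, 10 were matched by symbol. Their sum was 1677 to 1890 units with siKLF5, and 804 to 976 with siNC. Most of it was COL1A1 (1173 to 1333 and 518 to 611 units). In HCC95 the sum was 21.8 to 25.8 CPM (empty vector), 20.3 to 23.6 CPM (WT) and 39.0 to 45.5 CPM (E419Q). VWF gave 10.55 to 13.02, 12.27 to 15.92 and 26.02 to 28.23 CPM in these groups. CD3E was at 0 in every library. The part of these marker differences in the chaperone results was not tested. The libraries held an estimated 1922356 to 2296187 counts in BICR31 and 3074139 to 4643792 in HCC95, where 3 counts equal 0.646 to 0.976 CPM.

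RefSeq promoter windows (build GRCh38.p14, 250 bases before to 50 after the start site) were matched for 29 of the 34 genes, with 42 windows in all. No window was used for HSF1, FKBP4, CRYAB, ST13 and STUB1. Windows on the chromosome that carries HSF1 were left out beforehand, so whether HSF1 has a listed window was not tested. A heat shock element pair, GAANNTTC or TTCNNGAA (each its own reverse complement, and overlapping where copies alternate), stood in 19 of the 42 windows, or 45.2%, against 13.5% of the 34796 promoters in the table. The GC box GGGCGG, searched on both strands, stood in 76.2% of the chaperone windows and 44.9% of all promoters, and the CACCC box, on both strands, in 61.9% and 59.8%. These are matches of letters and do not show binding. The windows shown here belong to 5 genes that fell in at least 1 cell line, among them the HSP90 pair that moved apart in BICR31, and capitals mark the bases inside heat shock element pairs.
HSPA8: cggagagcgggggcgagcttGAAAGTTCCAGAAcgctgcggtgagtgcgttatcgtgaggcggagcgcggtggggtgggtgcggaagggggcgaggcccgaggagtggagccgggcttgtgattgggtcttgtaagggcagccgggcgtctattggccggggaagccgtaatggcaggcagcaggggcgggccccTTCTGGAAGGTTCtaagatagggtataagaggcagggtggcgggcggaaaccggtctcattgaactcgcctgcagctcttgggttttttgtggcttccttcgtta
HSP90AA1: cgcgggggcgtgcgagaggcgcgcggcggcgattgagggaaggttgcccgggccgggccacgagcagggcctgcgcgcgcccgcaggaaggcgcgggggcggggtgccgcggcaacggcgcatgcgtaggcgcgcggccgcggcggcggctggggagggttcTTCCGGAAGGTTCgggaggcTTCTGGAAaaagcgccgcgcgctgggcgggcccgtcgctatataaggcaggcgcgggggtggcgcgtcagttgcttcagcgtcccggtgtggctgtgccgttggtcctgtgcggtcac
HSP90AB1: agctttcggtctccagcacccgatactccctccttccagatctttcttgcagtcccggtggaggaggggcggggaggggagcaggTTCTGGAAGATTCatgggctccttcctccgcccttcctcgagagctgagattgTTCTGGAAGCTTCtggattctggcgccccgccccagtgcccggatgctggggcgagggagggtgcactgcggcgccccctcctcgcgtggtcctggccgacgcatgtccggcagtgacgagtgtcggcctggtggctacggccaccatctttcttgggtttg
CHORDC1: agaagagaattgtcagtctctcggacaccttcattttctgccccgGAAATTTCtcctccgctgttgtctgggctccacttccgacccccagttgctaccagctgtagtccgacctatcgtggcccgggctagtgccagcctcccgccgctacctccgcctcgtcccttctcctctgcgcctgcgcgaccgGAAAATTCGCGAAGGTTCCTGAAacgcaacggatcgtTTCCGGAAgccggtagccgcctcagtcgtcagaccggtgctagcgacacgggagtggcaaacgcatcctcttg
CCT5: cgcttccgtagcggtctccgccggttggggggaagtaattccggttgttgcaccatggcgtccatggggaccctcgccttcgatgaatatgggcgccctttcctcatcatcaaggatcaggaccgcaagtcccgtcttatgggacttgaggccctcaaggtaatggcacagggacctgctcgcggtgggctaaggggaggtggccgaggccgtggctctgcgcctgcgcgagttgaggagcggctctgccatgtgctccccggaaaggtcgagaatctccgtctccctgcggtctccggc
The HSPA8 window lies on the minus strand of chromosome 11 at chr11:123062087-123062386, with overlapping pairs that begin 230 and 55 bases before the start site and GC boxes that begin 66 and 14 bases before it. The HSP90AA1 window, 1 of 2 listed, lies on the minus strand at chr14:102086995-102087294, with pairs from 88 bases before the start. Its other window held no pair. The HSP90AB1 window, 1 of 3 listed, lies on the plus strand at chr6:44247693-44247992, with clusters from 165 and 112 bases before the start. The other HSP90AB1 windows both lie upstream of it, and neither held a pair. CHORDC1, on the minus strand at chr11:90223000-90223299, held the most bases inside such pairs of all the windows, 39. The CCT5 window, on the plus strand at chr5:10250287-10250586, held none of the 4 motifs, which says only that these letters are not in this window. The first part of this window reads as the start of the CCT5 coding sequence, so most bases upstream of that coding start were not searched. Whether this or any other window shown covers the promoter used in these cells was not tested.

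Silencing of KLF5 in BICR31 lowered most of the chaperone genes. Of the 34, all of which passed the filter on low signal, 20 fell and 4 rose (limma on log2(signal + 1), Benjamini-Hochberg over all genes, threshold 0.05). The 20 falls were 58.8% of the genes, where 10.8% of all 15710 genes tested fell. The 4 rises were 11.8%, where 15.3% of all genes rose, and 26.1% of all genes changed in either direction. The median log2 fold change was -0.23 for the chaperone genes and 0.04 for all genes. Each change was modest: apart from FKBP4, the falls ran from 10.5% for HSPA9 to 29.5% for HSPE1. Quantile normalisation of the signal gave 23 falls and 4 rises and moved the share of rises among all changed genes from 58.7% to 48.5%. In 27 of the 34 the siKLF5 and siNC libraries did not overlap, or 79.4%, against 40.0% of all genes. Highly expressed genes pass such a test more often, so the same count was taken among genes that averaged 1000 units or more. There 20 of 30 chaperone genes (66.7%) and 20.7% of all genes fell. As in all bulk samples, fewer cells with a transcript and less of it per cell cannot be told apart.

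**Figure D1:**
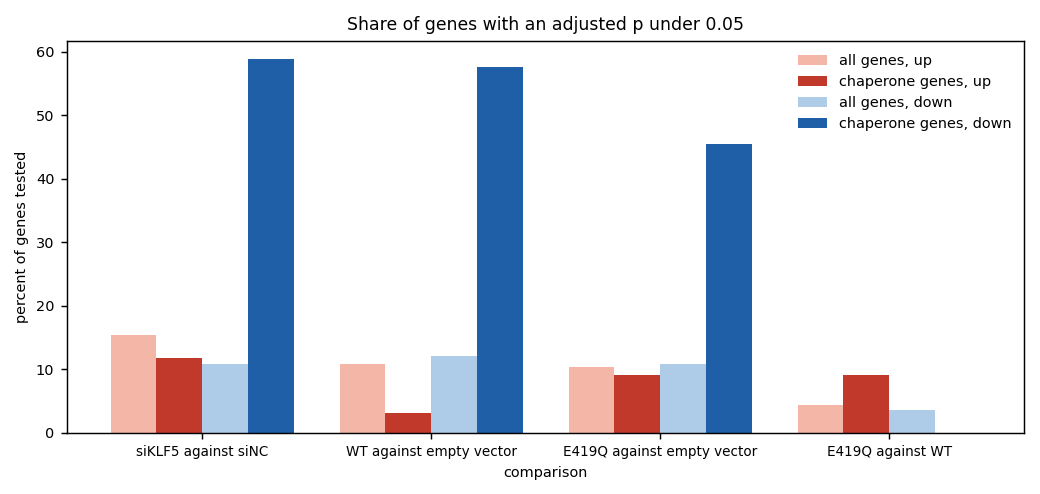
Percent of genes tested (y axis) with an adjusted p under 0.05 in each comparison (x axis), separately for higher and lower genes, for the chaperone genes and for all genes. The falls of the chaperone genes reach 58.8%, 57.6% and 45.5% in the 3 comparisons with a control, where 10.8%, 12.1% and 10.8% of all genes fell.

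Overexpression of wild-type KLF5 in HCC95 also lowered many of them. Of the 33 that passed the filter on low counts, 19 fell and 1, BAG3, rose (edgeR quasi-likelihood test, same adjustment and threshold). DESeq2 called 14 falls, and 13 were left without WT replicate A. The falls were 57.6%, against 12.1% of all 12933 genes, while 10.8% of all genes rose and 22.9% changed in either direction. The median log2 fold change was -0.25, against 0.00342 for all genes. The gene left out, DNAJA4, had no count in any HCC95 library, although it stood at 523 ± 11.1 units with siKLF5 and 553 ± 56.7 with siNC (SD, n = 3 each) in BICR31. With E419Q 15 of the 33 fell and 3, BAG3, HSPA1B and ST13, rose. There 10.8% of all genes fell, 10.4% rose and 21.2% changed in either direction. The median was -0.13 for the chaperone genes. This count of falls was the least firm: 7 remained significant without E419Q replicate B, and DESeq2 called 9. Groups did not overlap for 28 of the 33 with WT and 23 with E419Q, shares of 84.8% and 69.7%, where 61.0% and 58.8% of all genes did not. Among genes that averaged 100 CPM or more, 17 of 27 chaperone genes (63.0%) fell with WT and 13 (48.1%) with E419Q, against 27.7% and 24.7% of all genes at that level.

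KLF5 was thus lowered in one line and raised in the other, and in both many of the chaperone genes fell against the line's own control. No library is shared between the lines, but the WT and E419Q contrasts share the empty vector libraries. Of the 33 genes tested in both lines, 15 fell both with siKLF5 and with WT, which was 75% of the 20 siKLF5 falls and 78.9% of the 19 WT falls. For all 12432 genes tested in both, the 329 shared falls were 20.3% and 21.5% of the respective falls. With E419Q the shared falls were 11, or 55.0% of the siKLF5 falls and 73.3% of the E419Q falls, against 20.3% and 24.2% for all genes. The pattern of all 3 falls, with siKLF5, WT and E419Q, was shown by 11 genes. The share of all genes with that pattern was not counted. Of the list, 4 passed no test, HSF1, DNAJB1 and DNAJB4 in any comparison and DNAJA4 in BICR31, where alone it was tested. The genes took 1.23% to 1.26% of the total signal with siKLF5 and 1.47% to 1.495% with siNC. In HCC95 their share of all counts was 1.54% to 1.55% under the empty vector, 1.29% to 1.36% under WT and 1.41% under E419Q.

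**Figure D2:**
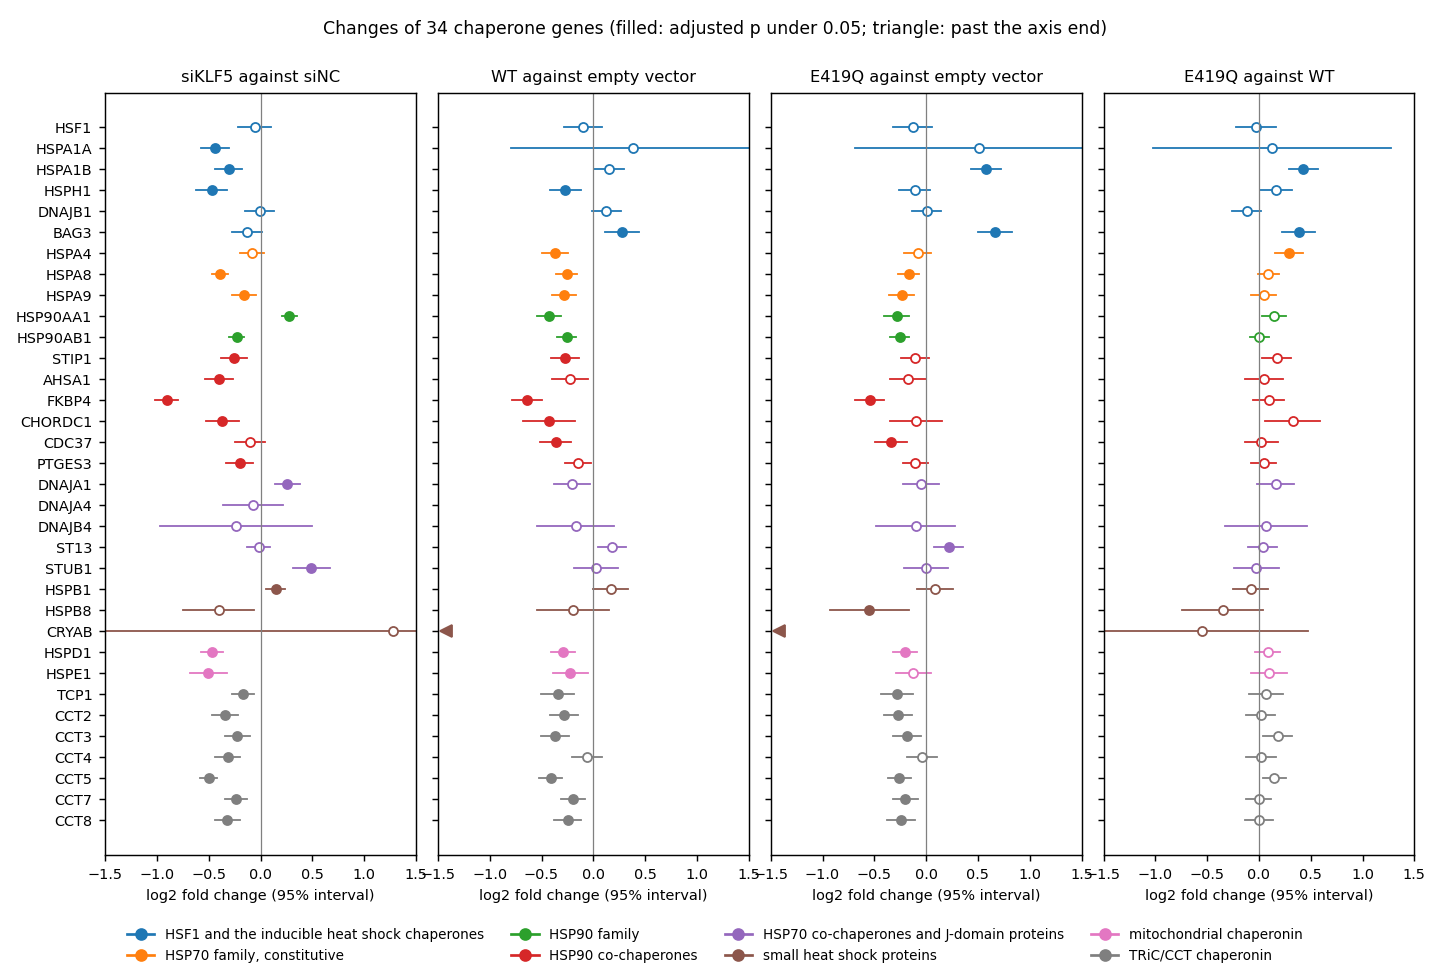
Log2 fold change (x axis) of each of the 34 genes (y axis, coloured by role) in the 4 comparisons, with its 95% interval as a line. Filled points have an adjusted p under 0.05, and the triangles mark CRYAB, whose values of -2.86 and -3.41 lie past the end of the axis. The TRiC/CCT genes lie left of 0 in the 3 comparisons with a control, while HSP90AA1 lies right of 0 with siKLF5 and left of it with WT and E419Q.

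The heat shock regulator HSF1 did not pass the test in any comparison. It stood at 2787 ± 40.6 units with siKLF5 and 2910 ± 283 with siNC (SD, n = 3), and at 115, 108 and 107 CPM with the empty vector, WT and E419Q. Of its inducible targets, 3 fell in BICR31: HSPH1, HSPA1A and HSPA1B. HSPH1, an HSP110-type exchange factor for HSP70, fell by 0.47 ± 0.07 on the log2 scale (SE, adjusted p = 8.76e-05, limma). HSPA1A and HSPA1B encode the stress-inducible HSP70 and are near-identical copies, sharing 72.6% of the 50-base stretches of the HSPA1A transcript in GENCODE 29, so the split of reads between them is uncertain. Their summed signal was 9022, 9242 and 9591 units with siKLF5 and 11760, 12050 and 11950 with siNC, with no overlap. Taken singly, HSPA1A fell by 0.44 and HSPA1B by 0.31. DNAJB1, the J-domain partner of inducible HSP70, was at 3853 ± 94.8 and 3880 ± 300 units and did not pass the test. BAG3, an exchange factor that links HSP70 to small heat shock proteins and autophagy, was at 2381 ± 78.9 and 2612 ± 32.7 units and did not pass it either (adjusted p = 0.17, limma).

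In HCC95 1 of these 6, HSPH1, fell with WT by edgeR and none by DESeq2. With E419Q none fell by edgeR or DESeq2 (2 passed an unadjusted p under 0.05 there, HSPA1B and BAG3, both higher). BAG3 was at 110.0 and 104.7 CPM with the empty vector, 134.8 and 127.0 with WT, and 174.7 and 171.5 with E419Q. The 3 groups did not overlap and ran in the order empty vector, WT, E419Q. The rises over the empty vector were 0.28 ± 0.08 with WT (adjusted p = 0.0146) and 0.66 ± 0.08 with E419Q (adjusted p = 1.55e-06) on the log2 scale, and E419Q stood above WT by 0.39 ± 0.08 (adjusted p = 0.00169; SE, edgeR). The rise with WT was not significant without empty vector replicate B or without WT replicate A (adjusted p = 0.107 to 0.142), nor by DESeq2 (adjusted p = 0.246), and the difference between the forms not without WT replicate B (adjusted p = 0.0536). HSPA1B was at 342.5 and 293.2 CPM with the empty vector, 367.0 and 341.4 with WT, and 478.5 and 487.2 with E419Q. Both E419Q libraries lay above all others, while empty vector and WT overlapped. HSPA1B rose with E419Q by 0.58 ± 0.07 against the empty vector (adjusted p = 1.77e-06) and by 0.43 ± 0.07 against WT (adjusted p = 0.000163), and with WT alone it did not pass the test (0.15, adjusted p = 0.132; edgeR). HSPA1A carried only 0.937 to 5.22 CPM in these libraries. The sum of both copies, in TPM (transcripts scaled by length and library total), was 212.9 and 185.0 with the empty vector, 224.7 and 209.9 with WT, and 296.0 and 302.5 with E419Q. The sum thus kept the order seen for HSPA1B. HSPH1 fell with WT by 0.27 ± 0.07 (adjusted p = 0.00786 by edgeR, but 0.0796 by DESeq2). Without WT replicate A its value was -0.19 and the call was not kept. HSPH1 did not pass the test with E419Q (-0.11, adjusted p = 0.305, edgeR), and DNAJB1 passed it in no comparison.

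HSPA8, the constitutive cytosolic HSP70 whose promoter window is printed above, was the most abundant HSP70 transcript per length in HCC95. In BICR31 it gave 21230, 21210 and 22620 units with siKLF5 and 29130, 27730 and 28530 with siNC. Every siKLF5 library lay below every siNC library, a fall of 0.39 ± 0.04 on the log2 scale (SE, adjusted p = 4.99e-07, limma). In HCC95 it gave 1532 CPM in both empty vector libraries, 1269 and 1314 with WT, and 1412 and 1372 with E419Q. It fell by 0.26 ± 0.05 with WT (adjusted p = 0.000459) and by 0.17 ± 0.05 with E419Q (adjusted p = 0.015, but 0.125 without E419Q replicate B; SE, edgeR). HSPA9, the mitochondrial HSP70, fell in all 3 comparisons with a control, by 0.16, 0.28 and 0.24. The first of these calls was lost when any siKLF5 library or siNC replicate C was left out (adjusted p = 0.0505 to 0.17), and the last without E419Q replicate B (adjusted p = 0.0836). HSPA4, an HSP110-type exchange factor, had another pattern. It gave 4840, 4658 and 4906 units with siKLF5 and 5255, 4933 and 5032 with siNC, which did not overlap but did not pass the test (adjusted p = 0.327, limma). It gave 327.6 and 324.9 CPM with the empty vector, 246.2 and 262.2 with WT, and 318.5 and 311.8 with E419Q. Here the WT libraries stood below the rest. HSPA4 fell with WT by 0.37 ± 0.06 (adjusted p = 0.000148), did not pass the test with E419Q (-0.08, adjusted p = 0.397) and was higher in E419Q than in WT by 0.29 ± 0.06 (adjusted p = 0.00426; SE, edgeR). That last difference was not significant without E419Q replicate A or WT replicate A (adjusted p = 0.067 to 0.0904), nor by DESeq2 (adjusted p = 0.0506).

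The HSP90 genes split in BICR31. HSP90AA1, the stress-responsive cytosolic HSP90, gave 27300, 28360 and 27390 units with siKLF5 and 23150, 22830 and 22560 with siNC. HSP90AB1, the constitutive form, gave 35650, 36520 and 36990 with siKLF5 and 42000, 44590 and 41530 with siNC. The groups did not overlap for either gene, and the genes moved in opposite directions: HSP90AA1 rose by 0.28 ± 0.03 (adjusted p = 8.8e-06) and HSP90AB1 fell by 0.23 ± 0.03 on the log2 scale (SE, adjusted p = 5.62e-05, limma). The ratio of their signals within a library was 0.740 to 0.776 with siKLF5 and 0.512 to 0.551 with siNC. In HCC95 both fell. HSP90AA1 gave 1711 and 1833 CPM with the empty vector, 1245 and 1407 with WT, and 1513 and 1457 with E419Q, falls of 0.43 ± 0.06 (adjusted p = 7.58e-06) and 0.29 ± 0.06 (adjusted p = 0.000758; SE, edgeR). HSP90AB1 gave 3324 and 3358 CPM with the empty vector, 2817 in both WT libraries, and 2872 and 2845 with E419Q, and fell by 0.26 with either form. The 2 transcripts share no 50-base stretch in GENCODE 29, unlike the HSPA1 pair. HSP90AA1 was the one gene of the list that rose with siKLF5 and fell with WT. The difference between the lines was not tested, since their values are on different scales.

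**Figure D3:**
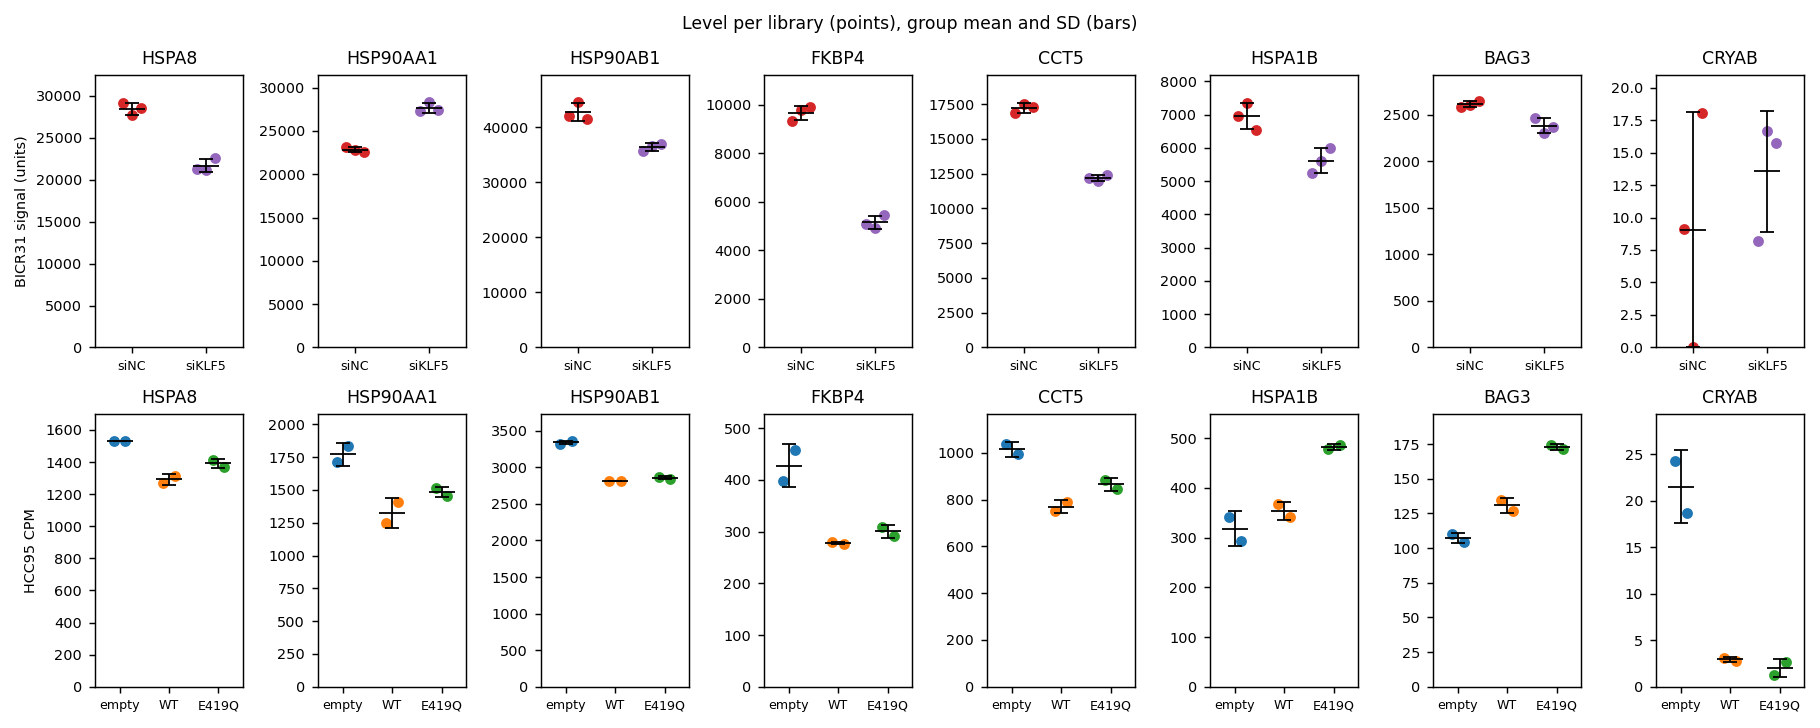
Level of 8 chaperone genes in each library (points), with the group mean and SD (bars), as normalised signal in BICR31 (upper row) and CPM in HCC95 (lower row). Each axis starts at 0. HSPA8, HSP90AB1, FKBP4 and CCT5 lie below the control in siKLF5, WT and E419Q. HSP90AA1 lies above siNC with siKLF5, and BAG3 and HSPA1B are highest with E419Q.

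Of the 6 co-chaperones of HSP90, 5 fell with siKLF5, 4 with WT and 2 with E419Q. FKBP4 encodes FKBP52, an immunophilin that binds HSP90 and steroid receptors. It gave 5086, 4917 and 5465 units with siKLF5 and 9318, 9775 and 9900 with siNC. This was the largest fall among the members called in BICR31, 46.7% or -0.91 ± 0.05 on the log2 scale (SE, adjusted p = 1.56e-09, limma). In HCC95 it gave 397.6 and 457.4 CPM with the empty vector, 278.9 and 276.0 with WT, and 309.0 and 291.3 with E419Q. No KLF5 library reached the empty vector, with falls of 0.64 ± 0.07 (adjusted p = 4.43e-07) and 0.55 ± 0.07 (adjusted p = 3.84e-06; SE, edgeR). Of the other 5, STIP1 (HOP, which bridges HSP70 and HSP90), AHSA1 (an activator of the HSP90 ATPase), CHORDC1 (a zinc-binding co-chaperone) and PTGES3 (p23, which stabilises the closed HSP90 clamp) fell with siKLF5, by 0.25, 0.40, 0.37 and 0.20. The PTGES3 call was kept without siKLF5 replicate A and lost when any other single library was left out (adjusted p = 0.0524 to 0.126). CDC37, which loads kinases onto HSP90, did not pass the test there (-0.10, adjusted p = 0.29, limma). With WT, CDC37, STIP1 and CHORDC1 fell, by 0.36, 0.27 and 0.43. CHORDC1 lost its call without empty vector replicate B or WT replicate A (adjusted p = 0.109 to 0.174). AHSA1 and PTGES3 had values of -0.22 and -0.15 with adjusted p of 0.0554 and 0.0768 (edgeR). With E419Q only FKBP4 and CDC37 of these 6 passed the test, and CDC37 fell by 0.34.

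No fall was called among the J-domain proteins and other HSP70 co-chaperones. None of the 5 fell with siKLF5 by limma, and none of the 4 tested in HCC95 fell with WT or E419Q by edgeR or DESeq2. At an unadjusted p under 0.05 only DNAJA1 lay lower, under WT (-0.21, adjusted p = 0.075, edgeR). STUB1, the ubiquitin ligase CHIP that marks chaperone clients for degradation, rose with siKLF5 by 0.49 ± 0.08 on the log2 scale (SE, adjusted p = 0.000321, limma), from 1644 ± 142 to 2305 ± 116 units (SD, n = 3). DNAJA1, a farnesylated J-domain protein, rose by 0.26 ± 0.06 (adjusted p = 0.00295), from 3926 ± 57.9 to 4703 ± 212 units. In HCC95 STUB1 gave 85.0, 87.7 and 87.2 CPM and DNAJA1 134.7, 117.2 and 132.9 CPM with the empty vector, WT and E419Q, and neither passed the test. ST13 (HIP, which stabilises ADP-bound HSP70) rose with E419Q by 0.22 ± 0.07 (adjusted p = 0.0232, edgeR), a call lost when any E419Q or empty vector library was left out (adjusted p = 0.0538 to 0.193). With WT its value was 0.18 (adjusted p = 0.0521), and in BICR31 -0.02 (adjusted p = 0.832). DNAJA4 and DNAJB4 were among the least expressed members and passed no test, with DNAJB4 at 86.6 to 258 units in BICR31 and 15.1 to 19.4 CPM in HCC95.

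The 3 small heat shock proteins did not move together. HSPB1 (HSP27) was the most abundant transcript of the list per length in HCC95, at 2214 ± 139 TPM with the empty vector (SD, n = 2). It rose with siKLF5 by 0.15 ± 0.04 on the log2 scale (SE, adjusted p = 0.0199, limma), from 9171 ± 252 to 10140 ± 24.4 units (SD, n = 3). That call did not hold under another scaling: with TMM factors on the signal its adjusted p was 0.104, and without siKLF5 replicate C or siNC replicate A it was 0.0554 and 0.0774. In HCC95 HSPB1 did not pass the test. HSPB8, the partner of BAG3, gave 21.42 and 20.46 CPM with the empty vector, 18.77 and 18.03 with WT, and 13.01 and 16.05 with E419Q. The E419Q libraries lay lowest, a fall of 0.55 ± 0.18 (adjusted p = 0.0359, edgeR) that was lost when any single E419Q or empty vector library was left out (adjusted p = 0.0542 to 0.23). In BICR31 its value was -0.40 (adjusted p = 0.0774, limma).

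CRYAB, alpha-B crystallin, had the largest fold change of the list. It gave 24.31 and 18.73 CPM with the empty vector, on the strength of 84 and 87 reads. In the WT libraries it gave 3.13 and 2.76 CPM, from 11 counts in each library, and with E419Q 1.30 and 2.68 CPM, from 4 and 9 counts. All 4 KLF5 libraries lay far below the empty vector, with fitted log2 fold changes of -2.86 ± 0.29 (7.25-fold lower, adjusted p = 2.42e-07) and -3.41 ± 0.33 (10.6-fold lower, adjusted p = 8.33e-08; SE, edgeR). WT and E419Q did not overlap, but at these counts the difference did not pass the test (-0.55, 95% interval -1.57 to 0.47, adjusted p = 0.625). In BICR31 CRYAB had at most 2 counts in any library, so a difference was not detectable at this depth.

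The chaperonin genes fell together with siKLF5. HSPD1 and HSPE1 encode HSP60 and its lid HSP10 in mitochondria and are neighbours that face away from each other. HSPE1 gave 2100, 1819 and 2228 units with siKLF5 and 2732, 2898 and 3070 with siNC. HSPD1 gave 7642, 7883 and 8417 units with siKLF5 and 11390, 11100 and 10610 with siNC. The groups did not overlap for either, and the falls of 0.50 ± 0.08 (adjusted p = 0.000219) and 0.47 ± 0.05 (adjusted p = 1.85e-06; SE, limma) were of like size. Both fell with WT as well, HSPD1 by 0.29 (adjusted p = 0.000685) and HSPE1 by 0.22 (adjusted p = 0.0494, edgeR), but HSPE1 lost its call without either E419Q library, empty vector replicate B or WT replicate A (adjusted p = 0.0734 to 0.456). With E419Q HSPD1 fell by 0.21 (adjusted p = 0.0122, but 0.144 without E419Q replicate B) and HSPE1 did not pass the test (-0.12, adjusted p = 0.311).

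All 7 listed subunits of TRiC/CCT, the cytosolic ring that folds actin and tubulin, fell with siKLF5. The falls ran from 0.17 for TCP1 to 0.50 for CCT5, with a median log2 fold change of -0.32. TCP1 lost its call without siKLF5 replicate A or siNC replicate A (adjusted p = 0.0543 to 0.0707). CCT5 gave 12150, 11980 and 12380 units with siKLF5 and 16840, 17500 and 17320 with siNC. The gap between the groups was far wider than the spread within them (SE 0.04, adjusted p = 5.26e-08, limma). Summed over the 7 genes the signal was 43460 to 44050 units with siKLF5 and 54780 to 55860 with siNC. In HCC95 6 of the 7 fell with WT and the same 6 with E419Q by edgeR. CCT4 was the exception both times at 276, 268 and 275 CPM with the empty vector, WT and E419Q. DESeq2 called only CCT5 of these 6 with E419Q, with adjusted p = 0.0697 to 0.327 for CCT2, CCT3, CCT7, CCT8 and TCP1. With WT it did not call CCT7 and CCT8 (adjusted p = 0.0593 and 0.072). Without WT replicate A the WT falls of TCP1, CCT7 and CCT8 were not significant (adjusted p = 0.0599, 0.0608 and 0.0653), nor was CCT7 without WT replicate B (adjusted p = 0.105). With E419Q the fall of CCT3 was lost when any single HCC95 library was left out (adjusted p = 0.0557 to 0.201), that of TCP1 without either E419Q library or empty vector replicate A (adjusted p = 0.0527 to 0.0838), and those of CCT7 and CCT8 without E419Q replicate B (adjusted p = 0.167 and 0.0789). CCT5 gave 1036 and 992.5 CPM with the empty vector, 750.4 and 788.2 with WT, and 884.8 and 843.7 with E419Q. The 3 groups did not overlap, and the falls were 0.41 ± 0.05 with WT (adjusted p = 6.8e-06) and 0.26 ± 0.05 with E419Q (adjusted p = 0.00105; SE, edgeR). The sum of the 7 was 2579 and 2596 TPM with the empty vector, 2014 and 2098 with WT, and 2252 and 2163 with E419Q. CCT subunits enter the ring in equal numbers, yet their transcripts did not stand at equal levels: with the empty vector CCT5 was at 1074 ± 24.7 TPM, CCT7 at 476 ± 4.24, and CCT8, CCT2, CCT3, CCT4 and TCP1 between 169 and 229.

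**Figure D4:**
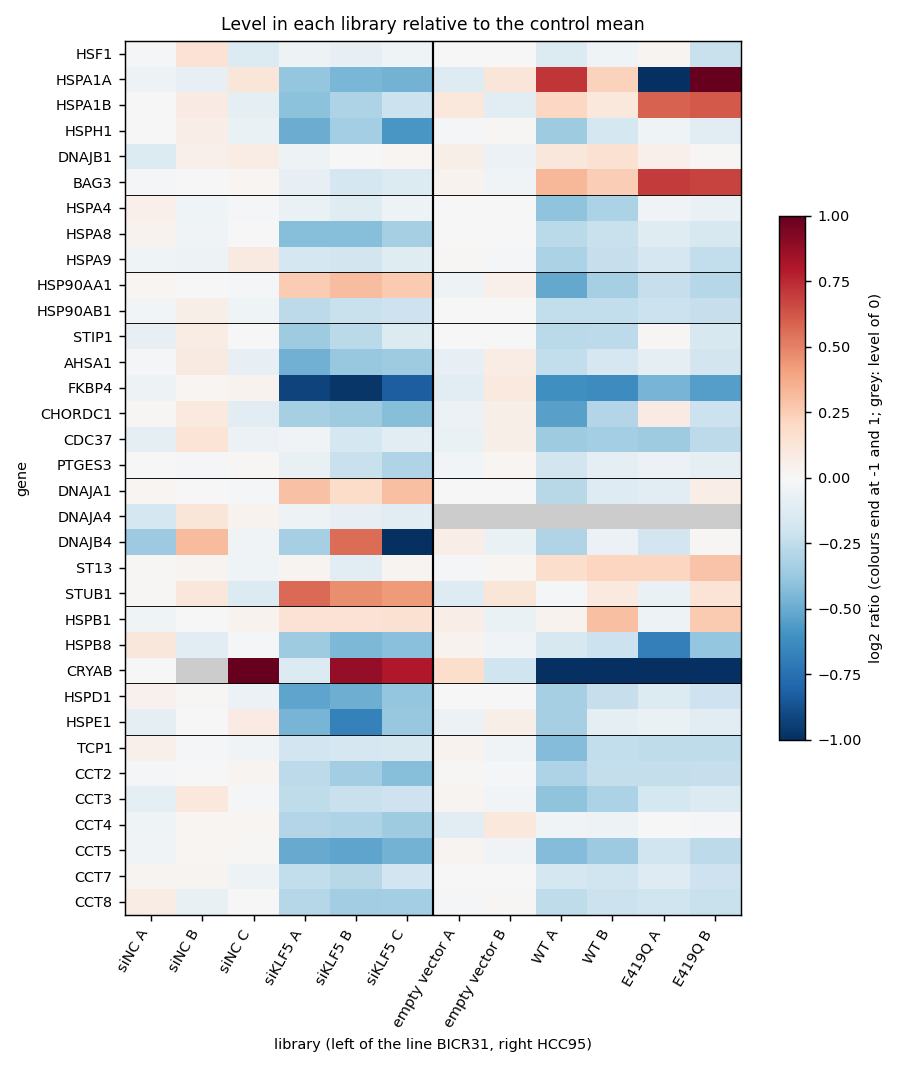
Log2 ratio of the level in each library (columns) to the mean of its cell line's control, siNC or empty vector, for the 34 genes (rows, grouped by role). The colours end at -1 and 1, and grey marks a level of 0. The siKLF5, WT and E419Q columns are mostly blue for HSPA8, the HSP90 co-chaperones, HSPD1, HSPE1 and the CCT genes, and BAG3 and HSPA1B are red with E419Q.

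E419Q and WT were then compared with each other, which asks whether the mutant acts on these genes as the wild type does. The KLF5 transcript itself differed by 0.06 (log2, adjusted p = 0.683, edgeR). Of the 33 chaperone genes, with a median of 0.06, 3 were higher with E419Q, HSPA1B, BAG3 and HSPA4, as given above, and none was lower by edgeR or by DESeq2. Of all genes 8.0% differed, 4.41% higher and 3.59% lower with E419Q. At an unadjusted p under 0.05 there were 9 of the 33, all higher with E419Q: those 3 with HSPH1, HSP90AA1, STIP1, CHORDC1, CCT3 and CCT5. Of all 12933 genes, 2460 passed that threshold in either direction (edgeR). The libraries did not overlap for 19 of the 33, or 57.6%, against 49.0% of all genes. For CCT5 the difference was 0.15 with a 95% interval of 0.04 to 0.26 (adjusted p = 0.107), and for HSP90AB1 0.00239 with an interval of -0.09 to 0.09.

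Levels per length in HCC95 set the scale of these changes. With the empty vector the order was HSPB1, HSP90AB1 (2032 ± 31.8 TPM), HSPA8 (1426 ± 24.0), CCT5 and HSP90AA1 (808 ± 47.9; SD, n = 2), and the libraries of neighbours in that order did not overlap. CCT7 and HSPE1 followed and overlapped each other, then HSPD1 at 430 ± 12.4 and PTGES3 at 376 ± 10.1. From ST13 (204 ± 3.39) down to DNAJB1 (168 ± 9.26), neighbours overlapped at every step. HSF1 (100 ± 6.04) and BAG3 (67.9 ± 3.98) stood lower in the list, and CRYAB, HSPB8, DNAJB4 and HSPA1A closed it above DNAJA4. With 2 libraries a group, this order describes these libraries.

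**Figure D5:**
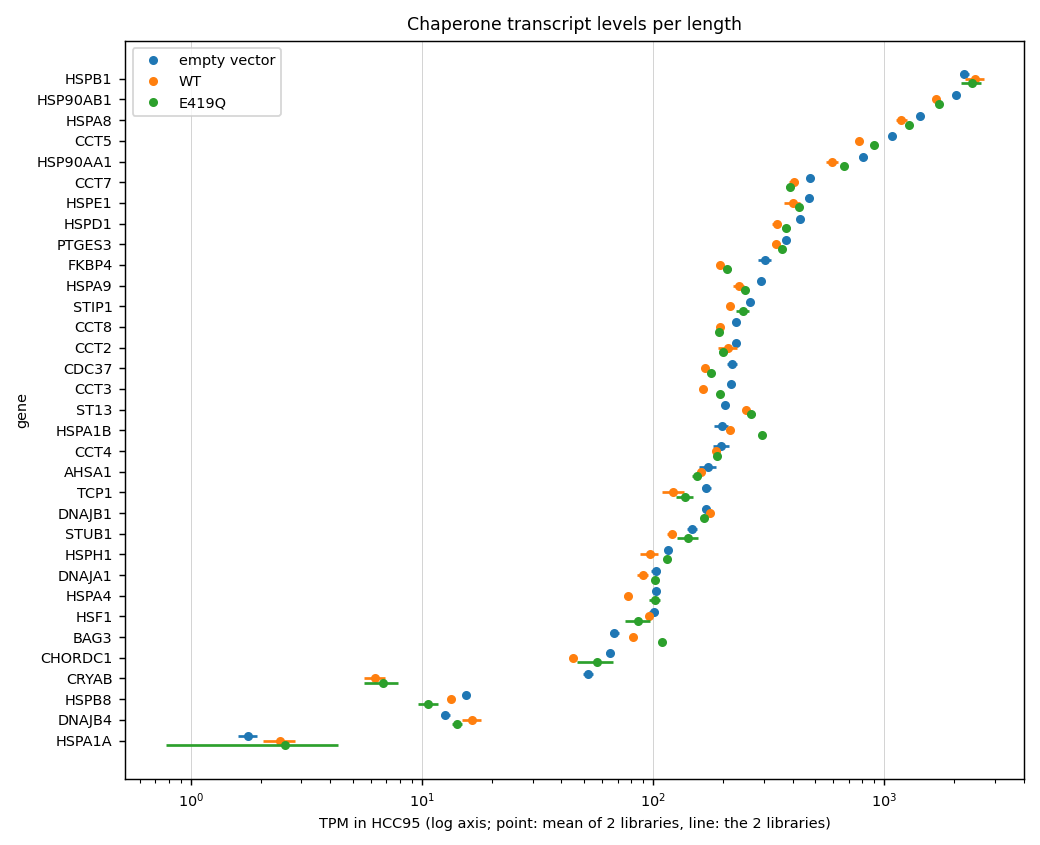
TPM (x axis, log scale) of 33 chaperone genes (y axis, ordered by the empty vector) in HCC95, as the mean of 2 libraries (point) with a line between them. DNAJA4, at 0 in all 6 libraries, is left out. Most WT and E419Q points lie left of the empty vector, CRYAB farthest, while BAG3 and HSPA1B lie right of it.

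The promoter windows were set beside the calls. Among the 29 matched genes, 18 had a heat shock element pair in at least 1 window and 11 had none. With siKLF5 11 of the 18 fell and 3 rose, and 8 of the 11 fell and 0 rose, where 10.8% of all genes fell and 15.3% rose. With WT 9 of 17 tested fell and 0 rose, and 8 of 11 fell and 1 rose (12.1% and 10.8% of all genes). With E419Q 8 of 17 fell and 1 rose, and 5 of 11 fell and 1 rose (10.8% and 10.4% of all genes). Genes with and without a matched pair were thus found among the falls in each comparison. Pairs outside these windows were not searched for, and CCT5, with the window shown above, counts among the genes without one.

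A wider list of 55 other chaperone network genes, from the endoplasmic reticulum, mitochondria and cytosol, was counted in the same way. With siKLF5 15 of 52 tested fell (28.8%) and 9 rose (17.3%), with a median log2 fold change of -0.15, where 10.8% of all genes fell and 15.3% rose. With WT 10 of 50 fell (20%) and 3 rose (6.0%), where 12.1% of all genes fell and 10.8% rose. With E419Q 6 fell (12%) and 5 rose (10%), close to the 10.8% and 10.4% of all genes, and between E419Q and WT 1 fell (2.0%), against 3.59% of all genes. The smallest adjusted p with siKLF5 belonged to HSPA5 (BiP, the HSP70 of the endoplasmic reticulum), which rose by 0.45, TRAP1 (the mitochondrial HSP90), which fell by 0.62, and HSPA4L (a relative of HSPA4), which fell by 1.22. With WT AHSA2, a paralog of AHSA1, rose by 0.72, from 49.4 ± 0.990 to 82.1 ± 4.15 CPM (SD, n = 2). CCT6A, a further subunit of TRiC/CCT, fell by 0.39 and SERPINH1, the collagen chaperone HSP47, by 0.36. With E419Q AHSA2 rose by 0.79, SERPINH1 fell by 0.41 and HSPB3, a small heat shock protein best known from muscle, fell by 1.65, from 7.82 ± 1.62 to 2.46 ± 0.721 CPM, a call lost with DESeq2 (adjusted p = 0.0838). HSPB3 was also the one gene of this list that differed between the forms, lower with E419Q than WT by 2.01 on the log2 scale (adjusted p = 0.000562, edgeR).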

How the data were processed

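Poly(A) RNA of 12 libraries in 5 groups was sequenced. STAR alignment and RSEM counting on hg19 are named in the submitters' processing notes, without versions, and edgeR and limma are added there for HCC95. From the HCC95 files the RSEM expected counts and TPM were used as the authors deposited them, per the file headers. For BICR31 the authors deposited a normalised signal, and the sources used here do not give its scaling. Every value above 0 was a multiple of 0.01 of a step of 7.87 to 9.12 units, taken as the worth of 1 count, and 81.8% to 82.6% were whole counts within 0.02, which gave the estimated depths.

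BICR31 signal was tested as log2(signal + 1) with limma 3.58.1 (empirical Bayes, mean-variance trend, the 15710 genes averaging 10 units or more), a scale on which fold changes of low genes depend on the pseudocount. HCC95 expected counts were rounded and tested with edgeR 4.0.16 (quasi-likelihood, TMM, filterByExpr, 12933 genes, all 6 libraries in 1 fit). Each test was two-sided, and Benjamini-Hochberg adjustment ran over all genes. CPM is relative to the raw library total. TPM served for levels between genes and for sums over genes, also shown by group, and no test was run on TPM. R 4.3.3 was used for the fits and Python 3.11.15 with pandas 2.3.3, numpy 2.4.6 and matplotlib 3.10.9 for the rest. The fits were tested on simulated data.

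The 34 genes, their roles, the 55 further genes and the motifs were chosen with earlier results of these data known. Values per library are given for KLF5, for the 3 called genes per comparison with the smallest adjusted p and for those without overlap and a log2 change of at least 0.5. HSP90AA1, HSP90AB1 and HSPD1 were added after their values were seen. Of the 55, the 3 called genes with the smallest adjusted p per comparison are named. Within groups the chi-square between replicates was 1.23 to 1.88 per degree of freedom, above sampling noise, so no library was counted as a copy of another. Alternatives covered scaling, filters, pseudocounts, DESeq2 1.42.0, the replicate block and leaving out each library. edgeR on recovered BICR31 counts was added after seeing the data. A marker gene fixed for the check of cell types is not reported here.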

Additional observations from a re-analysis of the deposited data

Results flagged for a closer look

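The effects of E419Q and WT, each against the empty vector, differed by a test of the difference itself (edgeR) for 3 of the 33 chaperone genes tested (9.09%), a share near the 8.0% of all genes. HSPA1B was higher with E419Q than with WT by 0.43 on the log2 scale, at 482.9 ± 6.15 against 354.2 ± 18.1 CPM (SD, n = 2). BAG3 was higher by 0.39, at 173.1 ± 2.26 against 130.9 ± 5.51 CPM. HSPA4 was higher by 0.29, at 315.1 ± 4.74 against 254.2 ± 11.3 CPM. For HSPA1B and BAG3 the E419Q level also exceeded the empty vector, while HSPA4 with E419Q stood at 315.1 CPM beside 326.3 CPM with the empty vector. The call of HSPA1B was kept without each single library and by DESeq2, and those of BAG3 and HSPA4 were not.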

How the results depend on the processing

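No call among the chaperone genes reversed under any alternative run. Without each library in turn, 20 of the 24 calls with siKLF5, 13 of 20 with WT, 9 of 18 with E419Q and 1 of 3 between the forms were kept. The 1 rise with WT became 0 with DESeq2 and 2 with library size as the only scaling or with no filter on low counts, and ran from 0 to 2 without each library. The 15 falls with E419Q became 9 with DESeq2 and ran from 7 (without E419Q replicate B) to 14 without each library, and the 3 rises against WT became 1 with DESeq2. DESeq2 also called fewer of all genes: 414 higher and 536 lower with WT against 1394 and 1568, 451 and 512 with E419Q against 1340 and 1397, and 214 and 173 between the forms against 570 and 464. The cause was not tested. In BICR31 TMM factors and edgeR on recovered counts each gave 21 falls and 3 rises. Replicate letters did not pair libraries (same-letter correlations of deviations -0.0761 to 0.0723), and with the replicate block there were 4 rises and 20 falls with siKLF5, 1 and 19 with WT, 3 and 14 with E419Q, and 3 and 0 between the forms. The block moved no count of all genes by over 1.5 times. Few counts limit CRYAB in BICR31 and HSPA1A in HCC95. E419Q replicate A held 2.88 counts of HSPA1A beside 1471.12 of HSPA1B, and the split of reads between these near-identical copies is uncertain.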
